A study of Mus musculus with 12 samples.

Results

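The WNT and R-spondin signalling genes described here were 50 genes taken from a list of WNT ligands, Frizzled and other receptors, secreted antagonists, R-spondins with their LGR receptors, nuclear factors and a feedback target. Of these, 49 were measured among the 18193 genes of the arrays, and Tcf7 was not analysed here because no probe set that names a single gene carried its symbol. Where several probe sets named a gene alone, the brightest over the 12 arrays was used. The measured genes were 16 ligands, 14 receptors, 10 antagonists, 7 genes of the R-spondin branch, and Lef1 and Axin2. A group mean above the median of all values, 6.28 log2 units, was reached by 43 of the 49, against 66.5% of all genes. The other 6, Wnt1, Wnt2b, Wnt3, Wnt8b, Wnt16 and Rspo4, stayed at or under it in every group, where differences are compressed.

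The samples were limbs of C57BL/6 mouse embryos, hybridised to 1-colour Affymetrix arrays that read each transcript through a set of short probes. Knockout embryos (KO, Lmx1b -/-) lacked Lmx1b, a LIM homeodomain protein required for dorsal pattern in limb mesenchyme, and were compared with wild-type embryos (WT, Lmx1b +/+). Each genotype was sampled at 11.5, 12.5 and 13.5 days post coitum (dpc), with 2 arrays in each of the 6 groups. At 11.5 and 12.5 dpc the tissue was the limb bud with its girdle, whereas at 13.5 dpc it was distal limb only (the zeugopod with the autopod, labelled as handplate). Per the labels, each array held pooled RNA of forelimbs and hindlimbs from different embryos than its replicate. The series text gives pools of 6, 3 and 6 limbs at the 3 stages and the extraction label gives 6 throughout, which was not settled here. Between stages the scan series and the dissected tissue changed with age, and these cannot be told apart. KO and WT arrays of a stage shared a scan series.

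WNT ligands are secreted lipid-modified proteins that bind Frizzled receptors together with LRP5 or LRP6, which spares beta-catenin from degradation and lets it act with TCF/LEF factors on target genes such as Axin2. R-spondins bind LGR receptors and keep Frizzled receptors on the cell surface, which strengthens the response, while SFRP and DKK proteins hold ligands or LRP co-receptors back. In the limb bud, ectodermal WNTs and mesenchymal R-spondins serve the apical ectodermal ridge and keep the underlying mesenchyme growing, and Wnt5a, acting largely without beta-catenin, is needed for outgrowth of the distal limb.

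The brighter Lmx1b probe set read 5.60 to 5.72 in KO limbs at 11.5 dpc, against 9.28 to 9.64 in WT limbs. It read 6.50 to 7.02 in KO limbs at 12.5 dpc, against 9.29 to 9.55 in WT limbs, and 7.48 to 8.88 in KO limbs at 13.5 dpc, against 10.19 to 10.27 in WT limbs. On this probe set KO lay below WT at every stage. The dimmer Lmx1b probe set read 5.46 to 5.98 over the 12 arrays, below the median of all values. There KO lay below WT at 11.5 dpc, and the genotypes overlapped at 12.5 and 13.5 dpc. Where the probes of either set lie relative to the deleted part was not examined. A pair of KO arrays stood apart. The heat shock markers Hspa1a and Hspa1b averaged 9.59 on KO 12.5 dpc replicate 2 and 5.64 to 6.51 on the other 11 arrays, and its cartilage markers averaged 8.41, against 9.61 on the other KO array and 9.82 and 9.95 on the WT arrays of that stage. On KO 13.5 dpc replicate 2 the proximal limb markers Meis1 and Meis2 averaged 9.72, against 8.27 on the other KO array and 7.80 and 7.63 on the WT arrays. The same array gave the Lmx1b reading of 8.88, against 7.48 on the other KO array, and its 5 erythroid markers averaged 11.58, against 10.48 on the other KO array and 10.28 and 9.95 on the WT arrays. The root mean square difference between replicates over the 49 genes was 0.57 for KO at 12.5 dpc and 0.542 for KO at 13.5 dpc, and 0.16 to 0.23 in the other 4 groups. 

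The limb identity markers differed between the earlier stages and 13.5 dpc. The hindlimb factors read 5.76 to 6.28 (Pitx1) and 7.40 to 8.17 (Tbx4) at 11.5 and 12.5 dpc, against 9.88 to 10.30 and 10.00 to 10.12 at 13.5 dpc, so Pitx1 lay near or under the median of all values in limb buds with girdle. The forelimb factor Tbx5 read 10.14 to 11.38 at 11.5 and 12.5 dpc and 9.47 to 9.93 at 13.5 dpc. The mix of limbs may differ between stages, which was not tested. It cannot be told apart from age, dissected tissue or scan series in the steps below.

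The larger differences among these genes lay between stages. Wnt4, Wnt6, Wnt7b and Lef1 were called lower at 12.5 than at 11.5 dpc and higher at 13.5 than at 12.5 dpc in both genotypes. Wnt2, Fzd2 and Rspo2 were called so in KO limbs and not at both steps in WT limbs, and Wnt3, Lrp5, Dkk1 and Axin2 in WT limbs and not at both steps in KO limbs, and the test of a difference between genotypes called none of them (0 of 49). A gene was called when its adjusted p in limma was under 0.05, with Benjamini-Hochberg adjustment over all 18193 genes. Between 11.5 and 12.5 dpc, 12 of the 49 genes were called in KO limbs (24.5%, against 16.8% of all genes), and 15 in WT limbs (30.6%, against 19.8%). The KO calls were 4 higher and 8 lower at 12.5 dpc, against 6.22% and 10.6% of all genes, and the WT calls 3 higher and 12 lower, against 6.67% and 13.1%. Between 12.5 and 13.5 dpc, 19 were called in KO limbs (38.8%, against 18.6% of all genes), and 20 in WT limbs (40.8%, against 25.3%). These were 15 higher and 4 lower at 13.5 dpc in KO limbs, against 10.4% and 8.22% of all genes, and 17 higher and 3 lower in WT limbs, against 14.5% and 10.8%. In WT limbs the median difference of the 49 genes was -0.20 at the earlier step, against -0.03 for all genes, and 0.14 at the later step, against 0.01 for all genes, on the log2 scale. Both steps of a genotype share its 12.5 dpc arrays, so a low or high reading there enters both with opposite sign.

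Among the ligands, Wnt4, Wnt6 and Wnt7b, made by the limb ectoderm among other places, dipped at 12.5 dpc in both genotypes. In KO limbs Wnt6 read 8.90 and 9.01 at 11.5 dpc, 8.17 and 8.31 at 12.5 dpc and 8.88 and 8.83 at 13.5 dpc, against 8.88 and 8.84, 8.04 and 8.37, and 9.16 and 9.02 at the same stages in WT limbs. The arrays of 12.5 dpc lay below those of both other stages in each genotype, and the genotypes overlapped at 12.5 dpc. Wnt6 fell between 11.5 and 12.5 dpc by 0.72 ± 0.12 in KO and by 0.66 ± 0.12 in WT limbs (log2 difference ± standard error, with adjusted p in limma of 0.00458 and 0.00547). It then rose by 13.5 dpc, by 0.62 ± 0.12 in KO and by 0.89 ± 0.12 in WT limbs (adjusted p = 0.00761 and 0.0011).

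Wnt4, known also for joint formation, read 8.55 and 8.68 at 11.5 dpc, 8.12 and 7.71 at 12.5 dpc and 8.94 and 8.93 at 13.5 dpc in KO limbs, against 8.68 and 8.69, 7.97 and 8.34, and 9.24 and 9.20 in WT limbs. Wnt7b read 9.22 and 9.40, 8.74 and 8.56, and 9.47 and 9.16 at the 3 stages in KO limbs, against 9.21 and 9.18, 8.59 and 8.79, and 9.53 and 9.53 in WT limbs. Both were lowest at 12.5 dpc on every array of each genotype. Between 12.5 and 13.5 dpc, Wnt4 rose by 1.02 ± 0.15 in KO and by 1.06 ± 0.15 in WT limbs, and Wnt7b by 0.66 ± 0.13 in KO and by 0.84 ± 0.13 in WT limbs (limma, adjusted p from 0.0012 to 0.00719). The earlier WT fall of Wnt4 (-0.53) was lost under 9 of 22 alternatives.

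Wnt3, the ligand needed in mouse ectoderm to form the apical ridge, was read by a dim probe set below the median of all values. It gave 4.99 and 5.19, 4.62 and 4.45, and 4.85 and 5.06 at the 3 stages in KO limbs, against 5.04 and 5.16, 4.17 and 4.67, and 5.48 and 5.13 in WT limbs. The KO differences of -0.56 and 0.42 were not called (limma, adjusted p = 0.0541 and 0.118), while the WT dip was called in both steps (-0.68 ± 0.17 and 0.88 ± 0.17). The test of whether a step differed between genotypes called 0 of the 49 genes at either step.

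Other ligands moved in their own ways. Wnt2 read 5.91 and 6.00, 5.20 and 4.36, and 5.51 and 6.10 at the 3 stages in KO limbs, against 6.17 and 6.63, 4.96 and 5.17, and 5.32 and 5.03 in WT limbs. It fell between 11.5 and 12.5 dpc in KO (-1.18 ± 0.27) and in WT limbs (-1.33 ± 0.27). Between the later stages it rose in KO limbs (1.03 ± 0.27, limma, adjusted p = 0.0271), a call lost under 6 of 22 alternatives, and the WT difference of 0.11 was not called. Wnt5a, the distal mesenchymal ligand, stayed between 11.21 and 11.99 on all 12 arrays. Its KO arrays read 11.37 and 11.42, 11.92 and 11.96, and 11.87 and 11.54, against 11.48 and 11.21, 11.68 and 11.61, and 11.99 and 11.92 in WT limbs. It was called higher at 12.5 than at 11.5 dpc in KO limbs (0.54 ± 0.12, limma, adjusted p = 0.0158), and the WT steps of 0.30 and 0.31 were not called. The other 3 Wnt5a probe sets passed at the earlier step in both genotypes, with 1.32, 1.05 and 1.53 in KO and 1.14, 0.61 and 1.37 in WT limbs (limma over all probe sets, adjusted p from 0.00241 to 0.0217). At the later step they gave -1.08, -0.37 and -1.19 in KO and -0.42, 0.41 and -0.47 in WT limbs, so the sets disagreed in sign in WT.

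**Figure D1:**
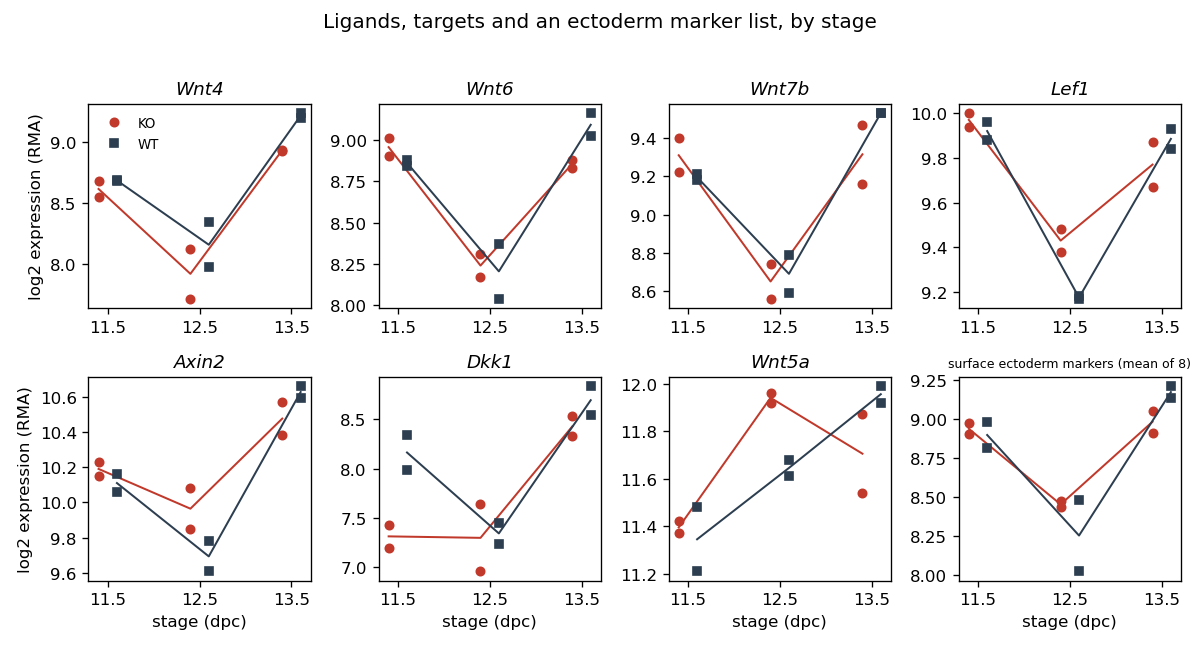
Log2 expression value of Wnt4, Wnt6, Wnt7b, Lef1, Axin2, Dkk1 and Wnt5a, with the mean of the 8 surface ectoderm markers, by stage in days post coitum. Each point is 1 array, lines join the means of 2 arrays, and KO is drawn left of WT at each stage. Wnt6 lay lower at 12.5 dpc than at both other stages on all arrays of each genotype.

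The mean of the surface ectoderm markers moved alongside these ligands, although not every marker did so in WT limbs. The mean of the 8 markers (Krt5, Krt14, Krt8, Krt18, Epcam, Cdh1, Trp63 and Perp) was 8.90 and 8.97 at 11.5 dpc, 8.43 and 8.47 at 12.5 dpc and 8.91 and 9.05 at 13.5 dpc in KO limbs, against 8.98 and 8.81, 8.02 and 8.48, and 9.21 and 9.13 in WT limbs. In KO limbs the list mean differed by -0.49 and then by 0.53, with 3 and 4 of the 8 called, and in WT limbs by -0.64 and then by 0.92, with 6 of the 8 called at each step. By sign of the difference, all 8 fell and then rose in KO limbs. In WT limbs 7 fell and 1 rose at the earlier step, and 6 rose and 2 fell at the later step. By WT group means, Krt8 (7.95, 6.61 and 6.60) and Krt18 (8.32, 7.53 and 7.48) did not rise again. Krt14 (9.71, 9.72 and 11.02) did not fall. The mean of the 4 apical ridge markers differed by -1.07 and then by 0.62 in KO limbs, and by -0.93 and then by 0.21 in WT limbs. The proximal limb markers read 9.97 to 10.24 in KO and 9.94 to 10.14 in WT limbs at 11.5 dpc, and 8.14 to 8.72 in KO and 7.96 to 8.38 in WT limbs at 12.5 dpc. In bulk RNA, fewer cells of a type and less RNA per cell cannot be told apart, and the part of these markers in the ligands' pattern was not tested.

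Among the 14 receptors, 2 rose and 1 fell in KO limbs between 11.5 and 12.5 dpc (Fzd5 and Lrp6, and Fzd2), and 1 rose and 1 fell in WT limbs (Fzd5, and Lrp5). At the later step 1 rose and 2 fell in KO limbs (Fzd2, and Fzd3 and Fzd5), and 4 rose and 1 fell in WT limbs (Fzd1, Fzd2, Fzd4 and Lrp5, and Fzd3). Fzd4, a Frizzled that also binds norrin, read 8.60 and 8.61, 9.03 and 8.44, and 9.50 and 9.09 at the 3 stages in KO limbs, against 8.67 and 8.63, 8.74 and 8.69, and 9.74 and 9.88 in WT limbs. Between 12.5 and 13.5 dpc the KO difference of 0.56 ± 0.18 was not called (limma, adjusted p = 0.0522). The WT arrays of 13.5 dpc lay above all earlier WT arrays, a rise of 1.09 ± 0.18 (adjusted p = 0.0026). A further Fzd4 probe set about as bright gave 0.30 in KO and 0.34 in WT limbs, neither called, and with the mean of all Fzd4 probe sets the WT difference was 0.56 and not called (adjusted p = 0.0772). Fzd2 read 12.08 and 11.87 in KO limbs at 12.5 dpc, against 11.96 and 12.04 in WT limbs, and 12.59 and 12.47 in KO limbs at 13.5 dpc, against 12.40 and 12.70 in WT limbs. It rose by 0.55 ± 0.12 in each genotype, after a fall of 0.43 ± 0.12 between 11.5 and 12.5 dpc in KO limbs (limma, adjusted p = 0.0354) that was lost under 10 of 22 alternatives, and a WT difference of -0.36 that was not called. The co-receptor Lrp5 fell and then rose in WT limbs (-0.61 and 0.59, limma, adjusted p = 0.0481 and 0.0446), calls lost under 13 and 12 of 22 alternatives, and the KO differences of -0.34 and 0.45 were not called.

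Fzd5 and Fzd3 took other courses. Fzd5 read 6.42 and 6.71, 8.05 and 7.53, and 6.97 and 6.89 at the 3 stages in KO limbs, against 6.80 and 6.54, 7.15 and 7.31, and 6.85 and 6.90 in WT limbs. It was highest at 12.5 dpc in each genotype, with a rise of 1.22 ± 0.17 in KO and 0.56 ± 0.17 in WT limbs between 11.5 and 12.5 dpc (limma, adjusted p = 0.00217 in KO and 0.0413 in WT). The WT call was lost under 12 of 22 alternatives. By 13.5 dpc Fzd5 fell by 0.86 ± 0.17 in KO limbs, and the WT difference of -0.35 was not called. A dimmer Fzd5 probe set ran against these signs, with -0.15 and then 0.33 in KO and -0.12 and then 0.19 in WT limbs. Fzd3, a receptor of planar cell polarity, read 10.32 and 10.29, 10.60 and 10.55, and 9.89 and 10.06 in KO limbs, against 10.31 and 10.27, 10.30 and 10.28, and 9.98 and 9.84 in WT limbs. It fell between 12.5 and 13.5 dpc by 0.60 in KO and by 0.38 in WT limbs, but its 3 further bright probe sets gave 0.04, 0.22 and -0.10 in KO and -0.17, 0.03 and -0.24 in WT limbs. With the mean of all its probe sets the KO difference was -0.13 and not called (adjusted p = 0.443).

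The 10 secreted antagonists differed by -0.70 to 1.13 in KO and by -2.12 to 1.35 in WT limbs between 12.5 and 13.5 dpc. Sfrp2 read 11.34 and 11.55, 11.64 and 11.25, and 12.56 and 12.05 at the 3 stages in KO limbs, against 11.68 and 11.69, 11.48 and 11.52, and 12.61 and 12.68 in WT limbs. The arrays of 13.5 dpc lay above the earlier ones in each genotype, a rise over 12.5 dpc of 0.86 ± 0.17 in KO and 1.15 ± 0.17 in WT limbs (limma, adjusted p = 0.00826 and 0.00159). Sfrp1 read 9.61 and 9.52, 9.32 and 8.78, and 9.60 and 10.28 in KO limbs, against 9.90 and 10.51, 9.18 and 9.16, and 9.42 and 9.61 in WT limbs. It fell by 1.04 ± 0.25 between 11.5 and 12.5 dpc in WT limbs (adjusted p = 0.0182), where the KO difference of -0.51 was not called. At the later step it rose by 0.89 ± 0.25 in KO limbs (adjusted p = 0.0357), a call lost under 10 of 22 alternatives, and the WT difference of 0.35 was not called.

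Dkk1, an LRP5 and LRP6 antagonist whose loss gives extra and fused digits in mice, read 7.20 and 7.43, 6.96 and 7.64, and 8.53 and 8.33 at the 3 stages in KO limbs, against 7.99 and 8.34, 7.45 and 7.24, and 8.55 and 8.84 in WT limbs. In KO limbs the readings at 11.5 and 12.5 dpc overlapped (-0.01 ± 0.21), and the rise at 13.5 dpc was 1.13 ± 0.21 (limma, adjusted p = 0.00699). In WT limbs it fell by 0.82 ± 0.21 and then rose by 1.35 ± 0.21. Dkk3, a divergent member of the family, read 7.21 and 7.59, 8.13 and 7.08, and 8.71 and 8.39 in KO limbs, against 7.53 and 7.69, 7.91 and 7.95, and 8.96 and 9.10 in WT limbs. It rose between 12.5 and 13.5 dpc by 0.94 ± 0.27 in KO and by 1.10 ± 0.27 in WT limbs. The KO call was lost under 15 of 22 alternatives, and the difference was 0.42 without KO 12.5 dpc replicate 2 and 1.47 without KO 12.5 dpc replicate 1.

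Dkk2, a context-dependent modulator of LRP6, read 8.65 and 8.81, 9.39 and 8.93, and 9.43 and 8.93 at the 3 stages in KO limbs, against 8.81 and 8.58, 9.38 and 9.19, and 10.00 and 9.93 in WT limbs. In KO limbs the readings at 12.5 and 13.5 dpc overlapped, with a difference of 0.02. It rose at both WT steps (0.59 ± 0.19 and 0.68 ± 0.19, with adjusted p in limma of 0.0487 and 0.0247), the first lost under 11 of 22 alternatives. Sfrp4 rose by 0.42 between 11.5 and 12.5 dpc in WT limbs, reading 7.03 and 6.78 at 12.5 dpc in KO limbs, against 7.12 and 7.34 in WT limbs.

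Frzb, a secreted Frizzled-like decoy known from developing cartilage, had the largest difference of any of the 49 genes between 12.5 and 13.5 dpc in WT limbs. It read 10.75 and 10.85, 9.98 and 10.84, and 9.01 and 10.40 at the 3 stages in KO limbs, against 10.69 and 10.53, 9.95 and 9.97, and 7.90 and 7.80 in WT limbs. The KO difference of -0.70 ± 0.37 was not called. The WT difference was -2.12 ± 0.37, a 4.33-fold fall (limma, adjusted p = 0.00349), and the other Frzb probe set gave -2.52. The mean of Meis1 and Meis2 differed by 0.56 in KO and by -0.45 in WT limbs at that step, with 0 of 2 called in each, and their part in the result was not tested.

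**Figure D2:**
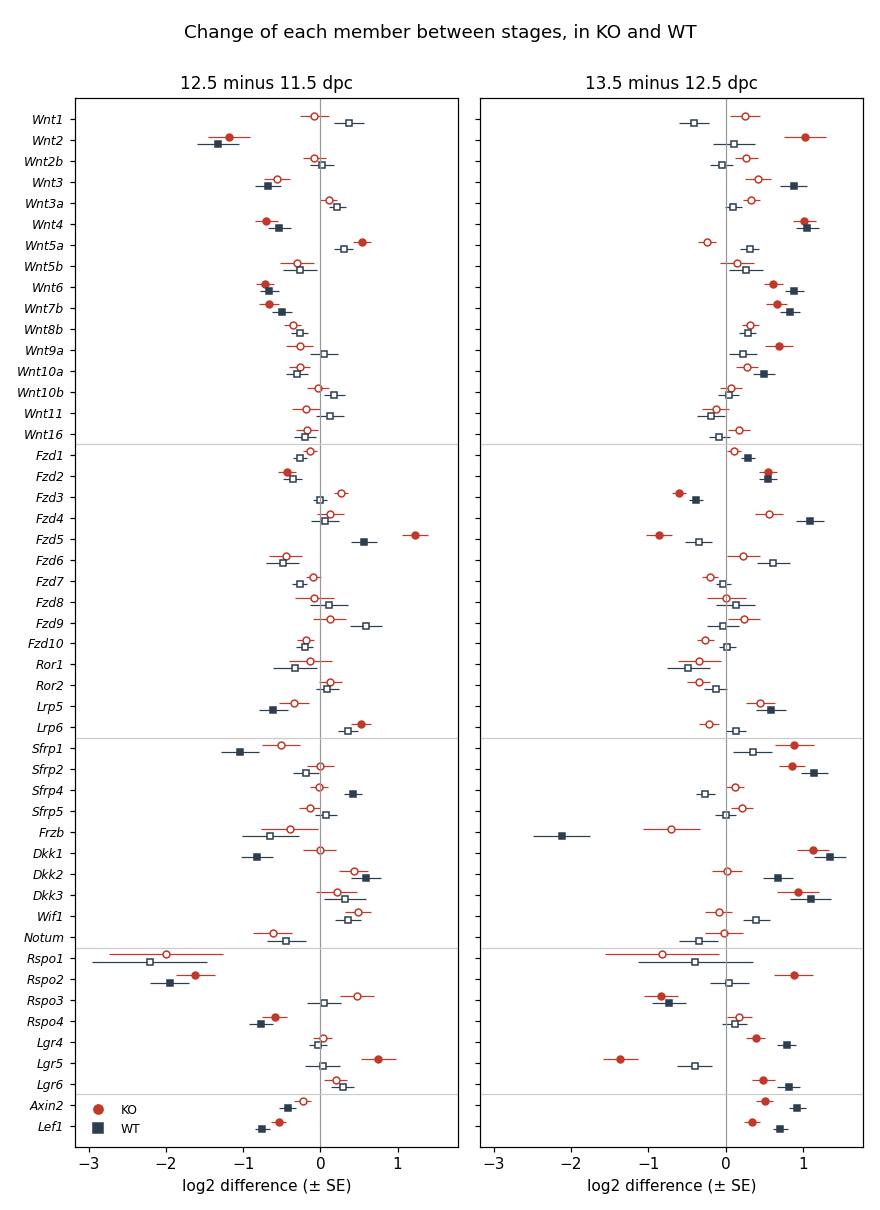
Log2 difference between consecutive stages for each of the 49 genes, KO beside WT, ordered by role. Filled points passed an adjusted p of 0.05 in limma and open points did not, and bars are 1 standard error. Rspo2 and, with open points, Rspo1 lay far to the low side between 11.5 and 12.5 dpc in both genotypes. Frzb did so in WT limbs between 12.5 and 13.5 dpc.

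In the R-spondin branch, Rspo2 and Rspo4 fell after 11.5 dpc in both genotypes, Rspo3 fell at 13.5 dpc, and Lgr4 and Lgr6 rose at 13.5 dpc, several of them in calls that some alternatives lost. Rspo2, needed in mice for the apical ridge and distal limb, read 8.34 and 8.03 at 11.5 dpc, 6.28 and 6.86 at 12.5 dpc and 7.10 and 7.79 at 13.5 dpc in KO limbs, against 8.50 and 8.47, 6.29 and 6.79, and 6.50 and 6.68 in WT limbs. All arrays of 12.5 dpc lay below all arrays of 11.5 dpc. Rspo2 fell by 1.62 ± 0.25 in KO and by 1.95 ± 0.25 in WT limbs, a 3.07-fold and a 3.85-fold difference (limma, adjusted p = 0.00364 and 0.0016). A dim further probe set of Rspo2 gave 0.03 at the WT step. Between 12.5 and 13.5 dpc it rose by 0.88 ± 0.25 in KO limbs (adjusted p = 0.0381), and the WT arrays overlapped (0.05). That KO call was lost under 10 of 22 alternatives, with 0.53 without KO 13.5 dpc replicate 2 and 0.59 without KO 12.5 dpc replicate 1.

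Rspo1 read 8.93 and 8.66, 7.76 and 5.83, and 4.65 and 7.31 at the 3 stages in KO limbs, against 8.21 and 8.13, 5.75 and 6.17, and 5.70 and 5.45 in WT limbs. The KO replicates of 12.5 and 13.5 dpc lay far apart. Between 11.5 and 12.5 dpc the KO difference of -2 was not called, nor was the WT difference of -2.21 ± 0.74 (limma, adjusted p = 0.061 in WT). Rspo3 read 8.61 and 8.77, 9.0 and 9.31, and 7.89 and 8.76 in KO limbs, against 9.01 and 8.93, 9.01 and 9.04, and 8.41 and 8.19 in WT limbs. It fell between 12.5 and 13.5 dpc by 0.83 ± 0.22 in KO and by 0.73 ± 0.22 in WT limbs (limma, adjusted p = 0.0302 and 0.0393), calls lost under 6 and 11 of 22 alternatives. The KO difference was -0.40 without KO 13.5 dpc replicate 1 and -1.26 without KO 13.5 dpc replicate 2. Rspo4, linked to nail formation in humans, was dim at 5.72 and 5.88, 5.15 and 5.27, and 5.17 and 5.61 in KO limbs, against 5.73 and 6.02, 5.26 and 4.95, and 5.17 and 5.29 in WT limbs. It fell between 11.5 and 12.5 dpc by 0.59 ± 0.16 in KO and by 0.77 ± 0.16 in WT limbs, and the KO call was lost under 7 of 21 alternatives.

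Of the receptors for R-spondins, Lgr4 read 10.17 and 10.15, 10.31 and 10.08, and 10.75 and 10.41 at the 3 stages in KO limbs, against 10.27 and 10.27, 10.26 and 10.23, and 11.04 and 11.04 in WT limbs. It rose between 12.5 and 13.5 dpc by 0.39 ± 0.12 in KO and by 0.79 ± 0.12 in WT limbs (limma, adjusted p = 0.0451 and 0.00164). Lgr6 rose at the same step by 0.49 ± 0.15 in KO and by 0.82 ± 0.15 in WT limbs. A further Lgr6 probe set about as dim gave 0.33 in KO and 0.11 in WT limbs. Neither was called (limma over all probe sets, adjusted p = 0.0911 and 0.554). The set used and the further set averaged 5.80 and 5.78 over the 12 arrays, below the median of all values. The KO calls were lost under 16 of 22 alternatives for Lgr4, with a lowest difference of 0.13, and under 13 of 22 for Lgr6, and the WT calls under 0. Lgr5, a marker of stem cells in several epithelia, read 7.81 and 8.28, 9.14 and 8.46, and 7.45 and 7.43 in KO limbs, against 8.08 and 7.57, 7.88 and 7.82, and 7.42 and 7.48 in WT limbs. In KO limbs it rose by 0.75 ± 0.23, a call lost under 14 of 22 alternatives, and then fell by 1.36 ± 0.23, and in WT limbs differences of 0.03 and -0.40 were not called.

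**Figure D3:**
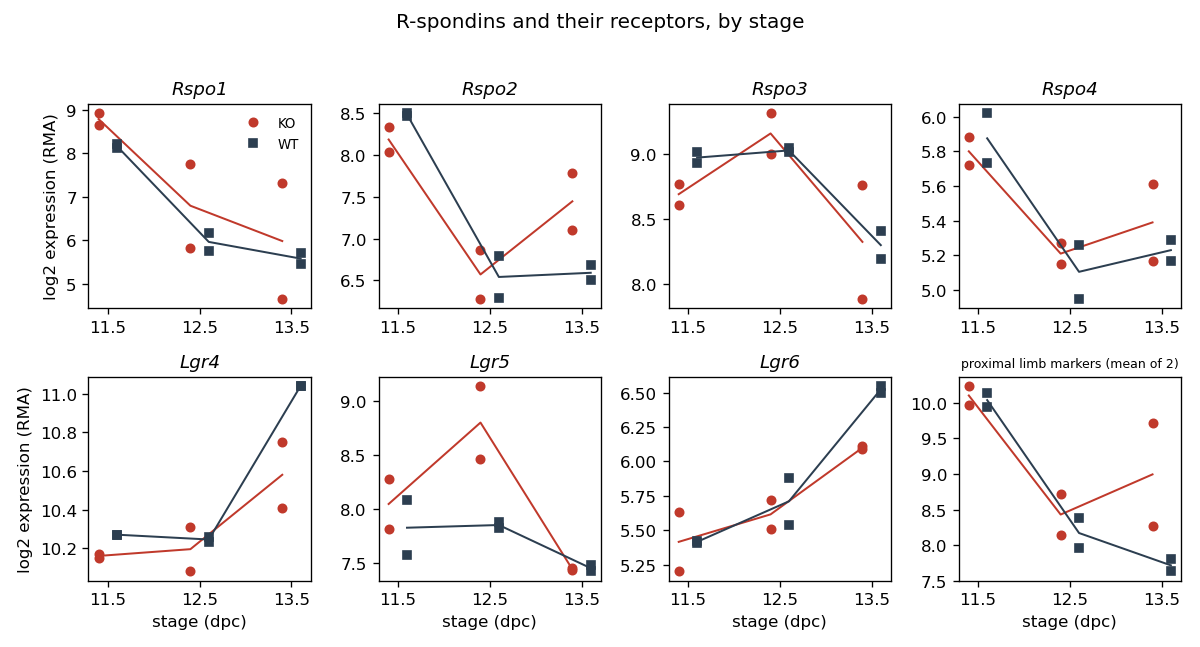
Log2 expression value of the 7 genes of the R-spondin branch and mean of the 2 proximal limb markers, by stage in days post coitum. Each point is 1 array, lines join the means of 2 arrays, and KO is drawn left of WT. Rspo2 was high at 11.5 dpc in both genotypes, and the KO replicates of Rspo1 lay far apart at 12.5 and 13.5 dpc.

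Lef1 and Axin2, the nuclear factor and the feedback target that report on beta-catenin signalling, were both called at each WT step, Lef1 also at each KO step and Axin2 at the later KO step. Lef1 read 9.94 and 10.00, 9.38 and 9.48, and 9.87 and 9.67 at the 3 stages in KO limbs, against 9.96 and 9.88, 9.18 and 9.17, and 9.93 and 9.84 in WT limbs. It fell by 0.54 ± 0.10 in KO and by 0.75 ± 0.10 in WT limbs between 11.5 and 12.5 dpc (limma, adjusted p = 0.00615 and 0.00153), and rose by 0.34 in KO and by 0.71 in WT limbs between 12.5 and 13.5 dpc. Axin2 read 10.15 and 10.23, 9.85 and 10.08, and 10.57 and 10.38 in KO limbs, against 10.16 and 10.06, 9.78 and 9.61, and 10.59 and 10.66 in WT limbs. The KO difference of -0.23 between 11.5 and 12.5 dpc was not called and the WT fall of 0.42 ± 0.11 was, and its later rise was 0.51 ± 0.11 in KO and 0.93 ± 0.11 in WT limbs. The further bright Axin2 probe set gave the same signs in both genotypes. That of Lef1 gave -0.26 in KO and -0.36 in WT limbs at the earlier step, and -0.26 in KO and 0.02 in WT limbs at the later one, so it ran against the KO rise, which was lost under 12 of 22 alternatives.

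Promoter windows of 250 bases before the gene start are shown for Axin2 and Dkk1, which moved between stages, and for Wnt11 and Frzb, which lay apart between genotypes at all 3 stages. They come from RefSeq on build GRCm38.p6, at chr11:108920099-108920348 (+ strand), chr19:30549497-30549746 (- strand), chr7:98834862-98835111 (+ strand, the upstream of 2 Wnt11 windows) and chr2:80447397-80447646 (- strand). Capitals mark a TCF/LEF core, CTTTGAT or CTTTGAA, searched on both strands. The homeodomain core TAATTA was searched too, and matches of the 3 motifs cannot start at the same base.
Axin2: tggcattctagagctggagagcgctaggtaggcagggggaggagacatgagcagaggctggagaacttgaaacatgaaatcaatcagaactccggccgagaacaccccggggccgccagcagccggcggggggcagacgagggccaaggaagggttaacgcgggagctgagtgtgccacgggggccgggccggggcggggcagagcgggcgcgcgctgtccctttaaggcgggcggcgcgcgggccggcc
Dkk1: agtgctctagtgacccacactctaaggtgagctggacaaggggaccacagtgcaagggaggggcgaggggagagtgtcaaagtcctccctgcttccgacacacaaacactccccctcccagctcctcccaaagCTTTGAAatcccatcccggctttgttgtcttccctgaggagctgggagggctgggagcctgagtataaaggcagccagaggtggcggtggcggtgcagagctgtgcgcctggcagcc
Wnt11: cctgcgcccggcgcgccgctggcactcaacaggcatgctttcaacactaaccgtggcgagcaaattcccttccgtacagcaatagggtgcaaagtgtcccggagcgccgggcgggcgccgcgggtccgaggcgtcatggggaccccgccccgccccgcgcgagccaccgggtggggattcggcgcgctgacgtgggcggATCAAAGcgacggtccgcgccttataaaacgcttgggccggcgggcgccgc
Frzb: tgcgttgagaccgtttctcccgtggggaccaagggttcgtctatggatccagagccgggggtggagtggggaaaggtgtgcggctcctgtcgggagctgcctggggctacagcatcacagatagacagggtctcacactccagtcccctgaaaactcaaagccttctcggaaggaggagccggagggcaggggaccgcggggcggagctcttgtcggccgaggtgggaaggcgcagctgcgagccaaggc
The Dkk1 window holds CTTTGAA 117 bases before the start, and the Wnt11 window shown holds CTTTGAT in reverse complement 51 bases before the start. The other Wnt11 window, not shown, and the Axin2 and Frzb windows hold none of the 3 motifs. CTTTGAT or CTTTGAA was found in 3 of 41 windows of 34 of these genes, 7.32%, and in 7.48% of 32851 RefSeq windows of the same length. A match describes the letters of the window and is not a measured site. The other 16 of the 50 genes had no entry in the sequence table used.

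The stage calls were shared in part between genotypes. The arrays are separate, but KO and WT arrays of a stage shared a scan series and the kind of tissue dissected. The tests of both genotypes also used a common estimate of the spread over all 6 groups. Shared calls are therefore not independent repeats. Genes called the same way in both genotypes were 8 of the 49 at the earlier step, against 11.1% of all genes, and 13 at the later step, against 12.4%. Between 11.5 and 12.5 dpc, Fzd5 rose and Lef1, Rspo2, Rspo4, Wnt2, Wnt4, Wnt6 and Wnt7b fell in both genotypes, 66.7% of the KO calls and 53.3% of the WT calls, against 65.9% and 55.8% over all genes. Between 12.5 and 13.5 dpc, the shared calls made up 68.4% of the KO calls and 65% of the WT calls, against 66.6% and 49% over all genes. They were Axin2, Dkk1, Dkk3, Fzd2, Lef1, Lgr4, Lgr6, Sfrp2, Wnt4, Wnt6 and Wnt7b, higher at 13.5 dpc, and Fzd3 and Rspo3, lower.

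These counts rest on pairs of arrays. In KO limbs the calls dropped to 5 and 2 at the earlier step without KO 11.5 dpc replicate 1 or 2, and to 9 at the later step without KO 13.5 dpc replicate 1. The WT calls at the earlier step dropped to 7 and 3 without WT 11.5 dpc replicate 1 or 2, and to 6 and 8 without WT 12.5 dpc replicate 1 or 2. At the later step they dropped to 12 without WT 12.5 dpc replicate 1, 13 without WT 13.5 dpc replicate 1 and 12 without WT 13.5 dpc replicate 2. Without both KO arrays that stood apart, the calls at the earlier step were 21 in KO and 26 in WT limbs. Of the KO calls, 0 of 12 and 0 of 19 were kept under all 22 alternatives. Fits of the compared groups alone called 0 genes at each KO step, which by itself sets these counts. The earlier KO calls of Rspo2 and Fzd5 and the later KO call of Wnt4 were lost under no other alternative. Of the WT calls, 3 of 15 were kept at the earlier step, for Wnt6, Rspo2 and Lef1, and 10 of 20 at the later step, for Wnt4, Wnt6, Wnt7b, Sfrp2, Frzb, Dkk1, Lgr4, Lgr6, Axin2 and Lef1.

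Further bright probe sets of the called genes, with a mean above the median of all values, gave the same sign in 10 of 10 cases in KO and 9 of 9 in WT limbs at the earlier step, and in 11 of 15 in KO and 13 of 14 in WT limbs at the later step. With dim sets counted too, the same sign was given by 11 of 13 in KO and 10 of 12 in WT limbs at the earlier step. At the later step it was given by 15 of 25 in KO and 20 of 21 in WT limbs.

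Among the genes not yet described, Wnt9a, a ligand of joints, rose between 12.5 and 13.5 dpc in KO limbs by 0.69 ± 0.18, and Wnt10a, an ectodermal ligand, rose at that step by 0.50 in WT limbs, as did the receptor Fzd1 by 0.29. The Wnt9a call was lost under 8 of 22 alternatives, the Wnt10a call under 4 and the Fzd1 call under 13. The co-receptor Lrp6 rose by 0.52 ± 0.13 between 11.5 and 12.5 dpc in KO limbs, a call lost under 5 of 22 alternatives. The other bright Lrp6 probe set gave 0.11 at that step, which was not called. The 19 genes called at no step in either genotype were the ligands Wnt1, Wnt2b, Wnt3a, Wnt5b, Wnt8b, Wnt10b, Wnt11 and Wnt16, the receptors Fzd6, Fzd7, Fzd8, Fzd9, Fzd10, Ror1 and Ror2, the antagonists Sfrp5, Wif1 and Notum, and Rspo1. With the probe sets used, their step differences ranged between -2.21, for Rspo1, and 0.62. Further sets of Ror2, Fzd6 and Ror1 did pass at some steps (limma over all probe sets, adjusted p from 0.00334 to 0.0376). That of Ror2 gave 1.51 and then -1.25 in KO limbs, and 0.83 at the earlier WT step. A set of Fzd6 gave -0.87 at the earlier KO step, and a set of Ror1 gave -1 at the later WT step. The other sets of these genes did not pass.

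Other genes of the pathway, 52 of 54 listed genes measured, were called between stages too. At the earlier step 5 rose and 8 fell in KO limbs (25%, against 16.8% of all genes), and 4 rose and 16 fell in WT limbs (38.5%, against 19.8%). At the later step 7 rose and 6 fell in KO limbs (25%, against 18.6%), and 22 rose and 4 fell in WT limbs (50%, against 25.3%). Bcl9l, a beta-catenin cofactor, fell by 1.11 in KO and by 1.19 in WT limbs and then rose by 1.48 in KO and by 1.73 in WT limbs. Celsr1, a planar polarity cadherin of epithelia, fell by 0.88 in KO and by 0.95 in WT limbs and then rose by 1.27 in KO and by 2.09 in WT limbs. Gsk3b, the kinase that marks beta-catenin for degradation, ran the other way, with a fall between 12.5 and 13.5 dpc of 1.06 in KO and 0.82 in WT limbs.

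Between KO and WT limbs no gene of the 49 was called, in the mean over the 3 stages or at any stage, with limma. Of all genes, 0.203% were called in the mean over the 3 stages, 0.0165% at 11.5 dpc, 0.0385% at 12.5 dpc and 0.0275% at 13.5 dpc. At an unadjusted p under 0.05 the counts among the 49 were 13 in the mean (26.5%, against 6.87% of all genes), 2 at 11.5 dpc (4.08%, against 1.64%), 13 at 12.5 dpc (26.5%, against 10.9%) and 10 at 13.5 dpc (20.4%, against 5.9%). The median KO minus WT difference of the 49 genes was -0.04 in the mean over stages, against -0.02 for all genes. The 3 tests of whether the KO minus WT difference changed between stages called 0 of the 49 and 0% of all genes, with 4, 10 and 5 of the 49 under an unadjusted p of 0.05 in 12.5 minus 11.5, 13.5 minus 12.5 and 13.5 minus 11.5 dpc, against 6.22%, 8.5% and 2.07% of all genes.

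**Figure D4:**
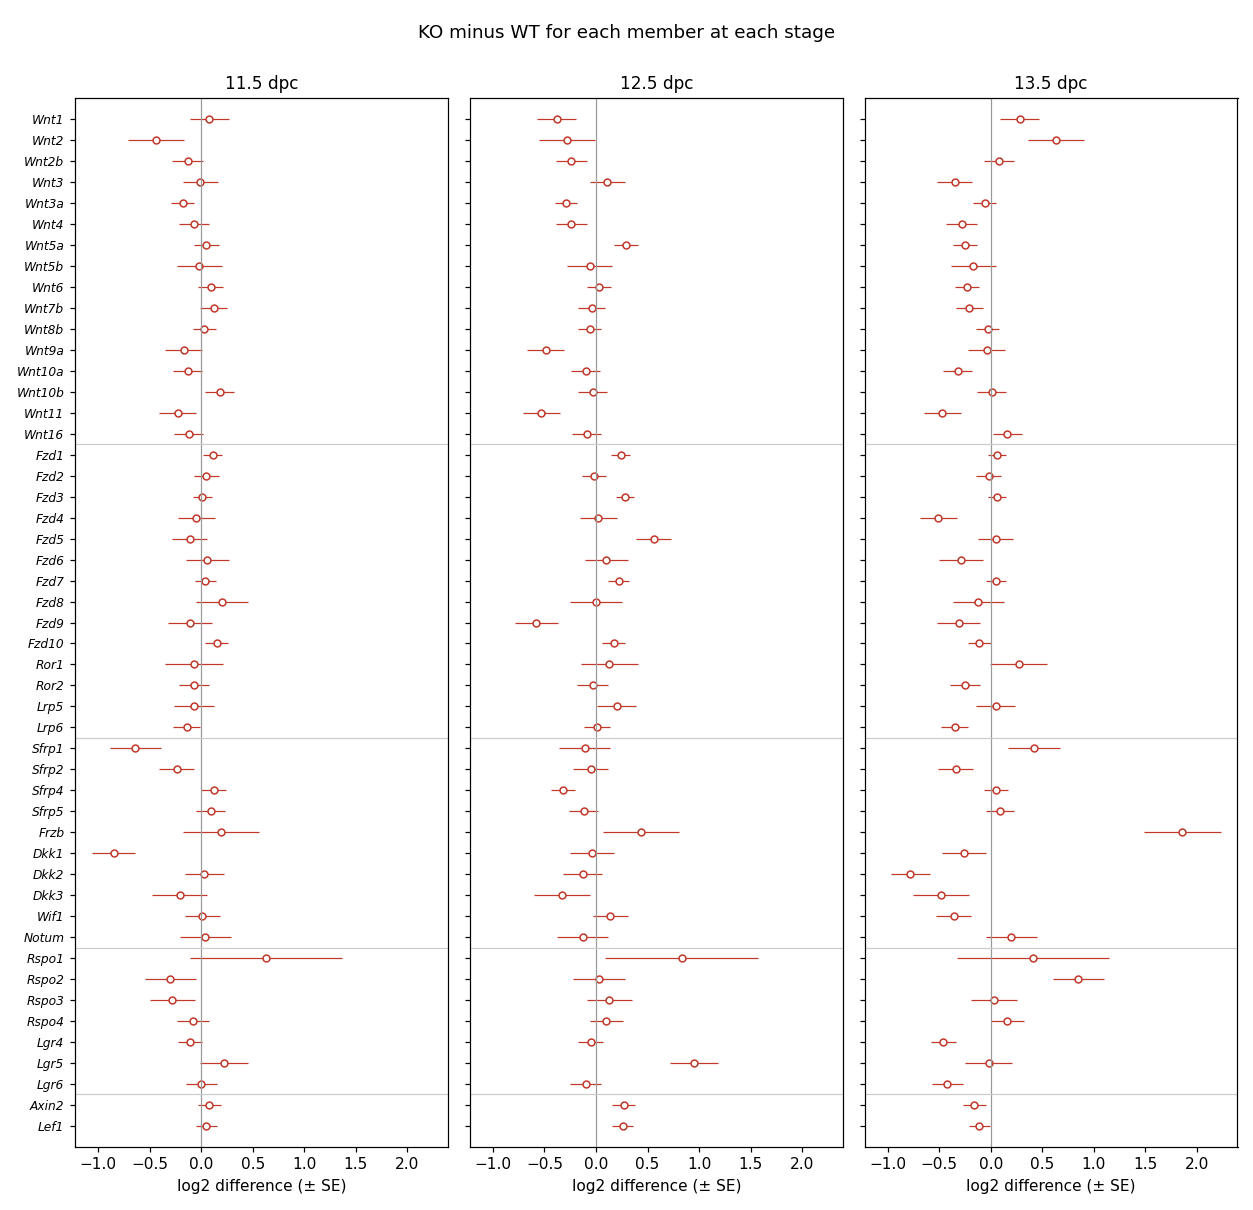
KO minus WT log2 difference of each of the 49 genes at the 3 stages, ordered by role, with bars of 1 standard error. All points are open because none passed an adjusted p of 0.05 in limma, and Frzb at 13.5 dpc lay farthest to the KO side.

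The KO arrays lay wholly above or wholly below the WT arrays for 22 of the 49 genes at 11.5 dpc (against 39.5% of all genes), 16 at 12.5 dpc (34.3%) and 27 at 13.5 dpc (33.9%). At 13.5 dpc 22 of the 49 lay wholly lower and 5 of the 49 wholly higher in KO limbs, against 22.3% of all genes wholly lower and 11.6% wholly higher. Marker lists moved at that stage too: 6 of the 8 surface ectoderm markers lay wholly lower and 1 wholly higher in KO limbs, with a list mean of 8.91 and 9.05, against 9.21 and 9.13 in WT limbs. The proximal limb markers differed by 1.27 and the cartilage markers by -0.85 in the list mean, none of these markers was called (0 of 8, 0 of 2 and 0 of 6), and their part in the lower readings was not tested. The sign was the same at all 3 stages for 18 genes (36.7%, against 27% of all genes), 5 of them higher and 13 lower in KO limbs. Wnt11 and Frzb were the 2 genes whose arrays did not overlap, in 1 direction, at all 3 stages, against 1.67% of all genes.

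Wnt11, a ligand acting mostly outside beta-catenin signalling, read 8.60 and 8.82 at 11.5 dpc, 8.78 and 8.26 at 12.5 dpc and 8.19 and 8.59 at 13.5 dpc in KO limbs, against 8.86 and 9.01, 9.10 and 9.01, and 8.92 and 8.81 in WT limbs. Every KO array lay below both WT arrays of its stage. The mean difference was -0.41 ± 0.10 (limma, adjusted p = 0.318), and -0.23, -0.53 and -0.47 at the 3 stages. Across 21 alternatives it ranged between -0.50 and -0.32, with adjusted p from 0.0169 to 0.872, and was called under 1, without KO 12.5 dpc replicate 1, where the KO group of that stage was the array with high heat shock markers.

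Frzb, whose arrays are given above, read higher in KO than in WT limbs on each pair of arrays. The mean difference was 0.83 ± 0.21 (limma, adjusted p = 0.349), with 0.19 at 11.5 dpc, 0.44 at 12.5 dpc and 1.86 ± 0.37 at 13.5 dpc (adjusted p = 0.253). The other Frzb probe set gave a mean of 1.04. At 13.5 dpc the difference was 1.17 without KO 13.5 dpc replicate 2 and 2.55 without KO 13.5 dpc replicate 1. At that stage the proximal limb markers averaged 8.27 and 9.72 in KO limbs, against 7.80 and 7.63 in WT limbs, and the 6 cartilage markers 9.53 and 9.05 in KO limbs, against 10.15 and 10.13 in WT limbs. Frzb was called in the mean contrast under 3 of 21 alternatives, and at 13.5 dpc without KO 13.5 dpc replicate 1 (adjusted p = 0.0122) and without both KO arrays that stood apart, among 22 alternatives with adjusted p from 0.0122 to 1, and the part of these markers was not tested.

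Among the remaining ligands, Wnt3a gave the smallest p, at values near the median of all probe sets. It read 6.01 and 6.01, 6.03 and 6.21, and 6.58 and 6.31 at the 3 stages in KO limbs, against 6.15 and 6.24, 6.38 and 6.45, and 6.53 and 6.49 in WT limbs, a mean difference of -0.18 ± 0.06 (limma, adjusted p = 0.573). KO lay below WT at 11.5 and 12.5 dpc, and the arrays overlapped at 13.5 dpc. In the mean over stages 14 of the 16 ligands had a negative KO minus WT difference (87.5%, against 58.6% of all genes), with a median of -0.06, against -0.02 for all genes, and 0 were called.

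Among the receptors, Fzd5 and Fzd3 read higher in KO limbs at 12.5 dpc on both arrays. Fzd5 differed by 0.56 ± 0.17 and Fzd3 by 0.28 ± 0.09 at that stage (limma, adjusted p = 0.262 and 0.296), and both genotypes overlapped for each at 11.5 and 13.5 dpc. The other bright Fzd3 probe sets gave -0.19 to 0.11 at 12.5 dpc.

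Among the antagonists, Dkk1 and Sfrp1 read lower in KO limbs at 11.5 dpc and Dkk2 at 13.5 dpc. Dkk1 differed by -0.85 ± 0.21 at 11.5 dpc, with both KO arrays below both WT arrays, and Sfrp1 by -0.64 ± 0.25, and neither passed (limma, adjusted p = 1). The mean Dkk1 difference was -0.38 ± 0.12 (adjusted p = 0.499), and its dimmer probe set gave -0.75 at 11.5 dpc. Dkk2 read 9.43 and 8.93 in KO limbs at 13.5 dpc, against 10.00 and 9.93 in WT limbs, a difference of -0.78 ± 0.19 (adjusted p = 0.382). The KO replicate with high proximal limb markers was the lower of the pair for Dkk2.

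In the R-spondin branch, the smallest p belonged to Lgr5 at 12.5 dpc and to Lgr4 at 13.5 dpc. Lgr5 read 9.14 and 8.46 in KO limbs at 12.5 dpc, against 7.88 and 7.82 in WT limbs, a difference of 0.95 ± 0.23 (limma, adjusted p = 0.19) that ranged between 0.32 and 1.29 over the alternatives. Its dim further probe set gave -0.31. Lgr4 read 10.75 and 10.41 in KO limbs at 13.5 dpc, against 11.04 and 11.04 in WT limbs, a difference of -0.46 ± 0.12 (adjusted p = 0.474). Rspo2 differed by 0.85 ± 0.25 at 13.5 dpc (adjusted p = 0.616), with the higher KO reading on the array with high proximal limb markers. 

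Lef1 and Axin2 differed by 0.06 each in the mean over stages, with other values by stage. At 12.5 dpc both KO arrays lay above both WT arrays for each gene, by 0.26 for Lef1 and 0.27 for Axin2 (limma, unadjusted p = 0.0232 and 0.0385, adjusted p = 0.373 and 0.427). At 13.5 dpc the differences were -0.11 and -0.16, with overlapping arrays for Lef1 and KO wholly lower for Axin2. The KO effect at 13.5 minus that at 12.5 dpc was -0.37 for Lef1 and -0.42 for Axin2 (unadjusted p = 0.0217 and 0.0235, adjusted p = 0.523 and 0.53). The further bright probe sets gave 0.19 for Lef1 and 0.02 for Axin2 at 12.5 dpc.

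**Figure D5:**
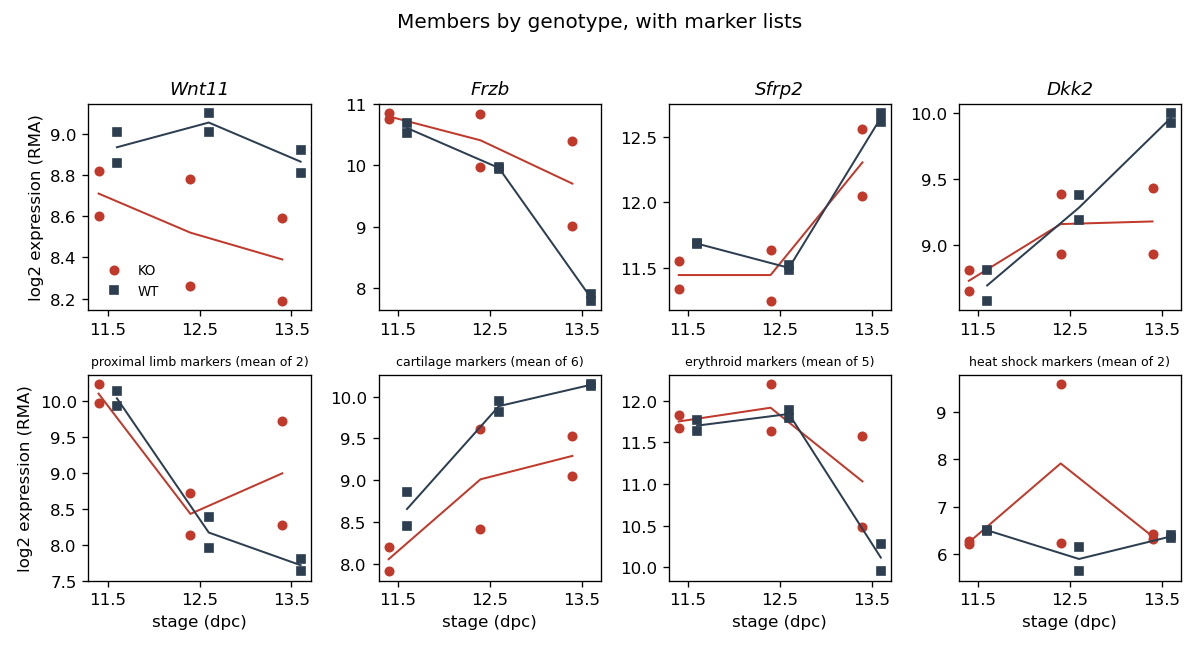
Log2 expression value, by stage in days post coitum, of Wnt11, Frzb, Sfrp2 and Dkk2, and the means of the proximal limb, cartilage, erythroid and heat shock markers. Each point is 1 array, lines join the means of 2 arrays, and KO is drawn left of WT. Every KO array of Wnt11 lay below, and every KO array of Frzb above, both WT arrays of its stage.

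Of the other genes of the pathway, 0 of 52 were called between KO and WT with limma. The smallest p belonged to Apcdd1, a WNT inhibitor at the cell surface, at 13.5 dpc. It read 10.16 and 10.28 in KO limbs, against 10.85 and 10.89 in WT limbs, a difference of -0.65 ± 0.10 (adjusted p = 0.0735). Both KO arrays lay below both WT arrays, and at 11.5 and 12.5 dpc the genotypes overlapped. Signs differed between stages. At 12.5 dpc 34 of the 52 genes had a positive and 18 a negative KO minus WT difference (34.6% negative, against 54.3% of all genes), with a median of 0.04, against -0.02 for all genes. At 13.5 dpc 12 of the 52 genes had a positive and 40 a negative KO minus WT difference (76.9% negative, against 52.6% of all genes), with a median of -0.10, against -0.01 for all genes.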

How the data were processed

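The authors deposited log2 expression values of 45101 probe sets for 12 arrays, and per the submitters' processing notes RMA (version not given in the sources used here) produced them. This method subtracts background, equalises the arrays' distributions and combines the probes of a set, and the sorted columns differed by at most 0.242. The 64 control probe sets, 932 naming several genes and 9160 unnamed ones were left out. Names came from the platform annotation table, and 34741 of 34945 probe sets naming 1 gene were matched to RefSeq GRCm38.p6 by gene ID. The brightest probe set represented each of 18193 genes.

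Group means of all 6 groups were fitted with limma 3.58.1 in R 4.3.3 (lmFit, eBayes; 6 residual and 4.22 prior degrees of freedom), two-sided, with 11 contrasts, each adjusted over all genes by the Benjamini-Hochberg method. The script was tested on simulated data. P-values measure the spread between pools of 2 arrays a group. The deviations of same-numbered KO and WT arrays from their group means had correlations of 0.187, -0.12 and -0.0869 at the 3 stages. With 2 arrays a group these cannot show whether the arrays were paired, and numbers were not used as pairs.

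Members, gene lists, roles and alternatives were chosen with earlier results of these data known. All members could be named. Values by array were given for the 6 smallest p in the mean contrast and 3 at each stage, the up to 6 largest calls in each direction per WT step, and Wnt5a, Wnt3, Rspo2, Axin2, Lef1 and Dkk1. Alternatives covered the probe set rule, the probe sets tested, normalization, the variance prior, a filter on dim genes, array weights, a replicate block, the groups fitted and arrays left out.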

Additional observations from a re-analysis of the deposited data

How the results depend on the processing

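Without both KO arrays that stood apart, 1 member was called in the mean KO minus WT contrast and 1 at 13.5 dpc (Frzb in both), 1 at 12.5 dpc and 1 in the difference of the KO effect at 13.5 minus 12.5 dpc (Rspo1 in both), 21 at the earlier KO step and 26 at the earlier WT step. With the replicate number as a block, the 4 KO minus WT contrasts called 0 members, the KO steps 9 and 11 and the WT steps 8 and 16. A crossed pairing at 12.5 dpc, added after seeing the data, called 0 members between KO and WT. Fits of the compared groups alone called 0 members at each KO step, and array weights called 2 at the later KO step. Leaving out each array in turn gave 0 to 4 members in the mean contrast, 0 to 4 at 12.5 dpc, 0 to 1 at 13.5 dpc and 0 at 11.5 dpc and in the 3 differences of KO effect, 2 to 15 and 9 to 24 at the KO steps, and 3 to 20 and 12 to 21 at the WT steps. Without KO 12.5 dpc replicate 1 the mean contrast called 4 (Dkk3, Frzb, Fzd9 and Wnt11). Over 66 called step differences of single members, 1138 of 1448 alternatives kept the call and 310 lost it. Over 15 KO minus WT differences with no call, 6 of 324 alternatives gained one. None of these alternatives turned the sign (0 in both). The cause of these shifts was not tested. Dim probe sets and 2 arrays a group limit the precision.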
